A study of Xenopus laevis with 4 samples.

Results

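The animal cap of the Xenopus laevis gastrula was compared with the ventral marginal zone, 2 of the 4 explants profiled in the series. The animal cap is the prospective ectoderm around the animal pole. The ventral marginal zone is the sector of the equatorial belt opposite the organizer. Each explant came from stage 10 embryos, the onset of gastrulation, with no treatment, genotype or strain given in the labels, and each was hybridised to 1 expression array. The dorsal marginal zone and the vegetal explant of the same stage served as the other arrays of the series. The labels do not give the number of embryos behind an explant. With 1 array a side, each value, in scaled intensity units, was measured once, has no replicate check and allowed no test.

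Cells of the animal cap form epidermis when left alone, under BMP signals, and neural tissue when BMP signals are blocked. Cells of the marginal zone become mesoderm in response to nodal-type ligands from the vegetal side, and FGF signals maintain brachyury and other mesodermal genes there. On the ventral side, Wnt8 and BMP ligands together keep up a set of homeobox genes and secreted BMP regulators that hold back dorsal fates.

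All 15491 probe sets outside the array controls were considered. Signals under 24.7, the 20th percentile of all values, were raised to that floor. A probe set was compared when the higher of the animal cap and the ventral marginal zone reached 147, the median of all values, which kept 8082 probe sets and 4641 of the 7531 named genes on the array. A difference of 2-fold or more counted as higher in one explant. Where the lower signal was at the floor, the fold is a bound and is written as "at least". Folds with the lower signal just above the floor are printed without these words, although they rest on a signal close to the floor. The suffixes .L and .S mark the copies of a gene on the long and the short chromosome sets of this allotetraploid frog. The value of a gene is the mean log2 signal over its compared probe sets. A gene counts as compared through its cap or its ventral signal alone where that mean reached 147 in that explant only.

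Differences were more frequent and much larger on the ventral side. Ventral-high means higher than in the cap and does not mean highest of the 4 arrays. Of the 8082 probe sets compared, 378 (4.68%) were past 2-fold. There were 116 probe sets (1.44%) with the higher signal in the cap and 262 (3.24%) with the higher signal ventrally. The largest cap difference was 7.91-fold, while 73 probe sets on the ventral side reached 8-fold or more and 40 reached 16-fold or more. The median fold was 2.28 among the cap-high and 4.04 among the ventral-high probe sets. The lower signal lay at the floor for 51 of the ventral-high and for 1 of the cap-high probe sets. By gene, 4.16% were past 2-fold, of which 49 (1.06%) were higher in the cap and 144 (3.1%) ventrally. No symbol belonged to 48 of the cap-high and 84 of the ventral-high probe sets, the cap-high one of 7.91-fold among them (809 in the cap, 102 ventrally). The median difference of all probe sets was 0.0084 on the log2 scale.

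**Figure D1:**
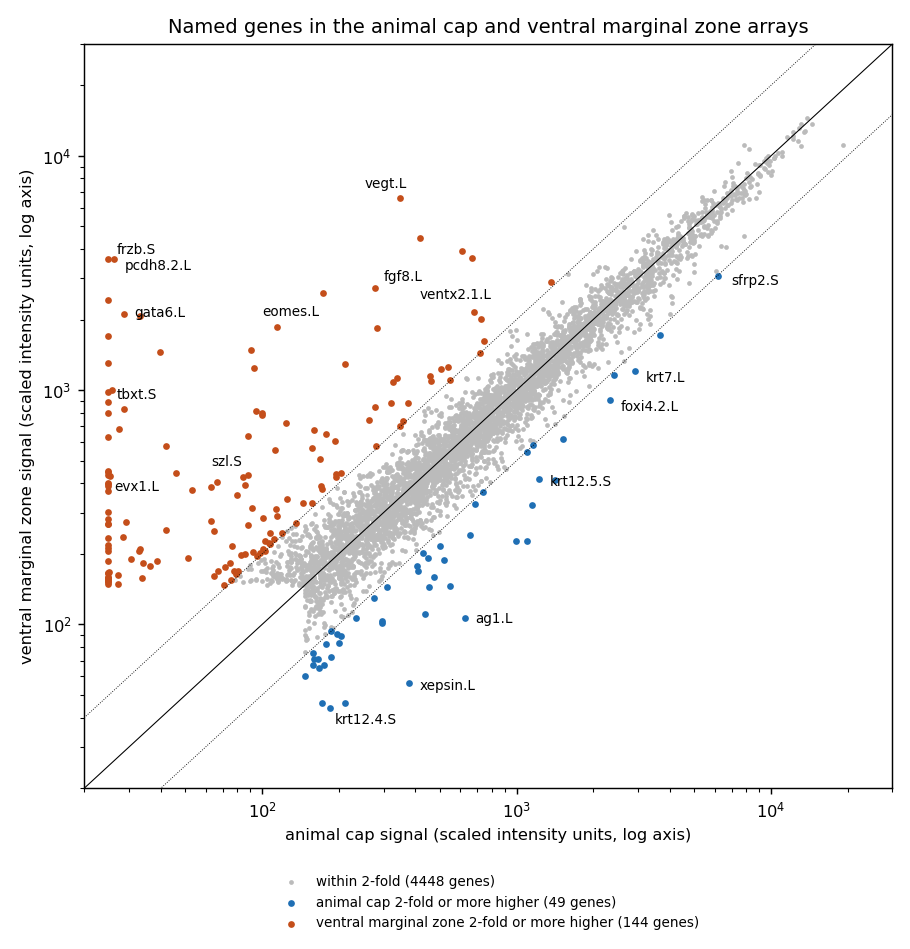
Signal of each named gene in the animal cap (horizontal, log axis) and in the ventral marginal zone (vertical, log axis), in scaled intensity units, with 1 array per explant. The solid line marks equal signals and the dotted lines 2-fold. The 144 ventral-high genes spread far above the diagonal, many of them at the cap floor of 24.7, and the 49 cap-high genes reach at most 6.7-fold below it.

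Markers of the explants set the frame for these values. The 18 probe sets for ectodermal markers (krt12.4, krt12.5, krt70, foxi4.2, grhl1, grhl3, tfap2a, dlx3 and sox2) summed to 57136 in the cap and 33527 in the ventral marginal zone, with 1 at the floor in the latter. Their sums were 20110 dorsally and 1666 vegetally. The 4 probe sets of krt70.S gave 65.7% of the cap sum and 67.6% of the ventral sum. The 16 probe sets for ventral mesoderm markers (tbxt, wnt8a, evx1, msgn1, tbx6, ventx3.2, szl, bambi, cdx4, fgf8 and mix1) summed to 767 in the cap, 10579.8 ventrally, 7182 dorsally and 9111 vegetally, with 9 at the floor in the cap and 0 ventrally. By sum they therefore separate the cap from the other explants and do not mark the ventral one in particular. The gene fgf8.L gave 60.2% of the dorsal sum, and wnt8a.L and ventx3.2.S gave 31.2% and 21.5% of the vegetal sum. Single members differed in order, with evx1.L, msgn1.L, tbxt.S and szl.S highest ventrally, fgf8.L dorsally, and wnt8a.L, ventx3.2.S and both mix1 copies vegetally. Endoderm markers (sox17a, sox17b.1, mixer, gata4, gata5, gata6, osr1 and cer1) summed to 236 in the cap and 6699 ventrally over 14 probe sets, against 9170 dorsally and 38582 in the vegetal explant. Organizer markers (gsc, chrd.1, admp, nodal3.1, dkk1 and frzb) summed to 192 and 4225 over 11 probe sets, and frzb.S alone gave 3625 of the ventral sum. The organizer sums were far higher dorsally (22309) and vegetally (19167), and 8 probe sets lay at the floor in the cap and 5 ventrally. Both chrd.1.S probe sets and dkk1.S lay at the floor ventrally. Germ plasm markers (pgat, dazl, ddx25, germes and grip2) summed to 179.8 and 634, against 23212 in the vegetal explant. In tissue pieces a smaller number of cells of a type and less RNA per cell cannot be told apart, and the part of tissue composition in the differences below was not tested.

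Epidermal keratins had the highest median of the 18 gene lists. These genes encode intermediate filament proteins of epithelia, and not all members of the list are particular to the embryonic skin. Of 18 keratin genes on the array 11 were compared, 5 were higher in the cap and 1 ventrally. The median difference was 0.78 on the log2 scale against 0.0078 for all named genes. Cap-high and ventral-high shares were 45.5% and 9.09%, against 1.06% and 3.1% of all named genes, the background of every list count below. The gene krt12.5.S gave 1220.2 in the cap, 418 ventrally, 71.4 dorsally and 9.26 vegetally, and was 2.92-fold higher in the cap than ventrally. In the same order krt70.L gave 1154, 322, 79.7 and 20.8, a 3.58-fold cap difference. The type I keratin copies krt12.4.L (2423, 1156, 270 and 1.74) and krt12.4.S (184, 44.1, 2.44 and 5.52) were 2.1-fold and 4.19-fold higher in the cap. The signals of these genes thus fell in the order cap, ventral, dorsal, with the vegetal explant at the floor in each case. The brighter probe set of krt7.L gave 2931, 1201, 383 and 36.6, a 2.44-fold cap difference, and its dimmer probe set stayed below the filter. The brightest keratin, krt70.S, was 1.43-fold to 1.98-fold higher in the cap on its 4 probe sets and 1.72-fold as a mean, short of the rule of size. A keratin of simple epithelia ran the other way, since krt18.1.S gave 461 in the cap, 1092 ventrally, 1304 dorsally and 1442 vegetally, while its copy krt18.1.L was near equal in the cap and ventrally (2446 and 2827). The gene krt19.L was equal at 863 and 862.

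Of 32 ectodermal transcription factor genes on the array 20 were compared, 2 were higher in the cap and 2 ventrally, with a median of 0.55. Median centring of the arrays put 5 in the cap group and 2 in the ventral one. The homeobox gene dlx6.S gave 521 in the cap, 189 ventrally, 136 dorsally and 44.5 vegetally (2.75-fold). The forkhead gene foxi4.2.L, which specifies ectoderm in Xenopus, gave 2329.6, 910, 342 and 529 on its brighter probe set (2.56-fold). Its copy foxi4.2.S gave 1231 and 876 in the cap and ventrally, a 1.41-fold difference. The grainyhead-like genes, regulators of epidermal differentiation, stood at 4060 in the cap and 2513 ventrally for grhl1.L (1.62-fold) and at 1934 and 1277 for grhl3.L (1.51-fold). Their dorsal signals were 863 and 454. The ventral members were gata3.S (33.7 in the cap and 157 ventrally, 4.67-fold) and msx1.L (194 and 609, 3.14-fold), which BMP signals also switch on. The gene klf17.1.S, with 1102 in the cap and 931 ventrally, was among the nearest to no difference, and its dorsal signal was 185.

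Among neural plate regulators, 4 of 24 compared genes were higher in the cap and 1 ventrally (44 on the array, median 0.17). Of the 4, 3 were compared through their cap signal alone. With arrays scaled to the hybridisation controls 3 were higher ventrally, and with median centring 0. All 4 cap-high genes encode homeodomain proteins, and 3 of them gave their highest signal in the dorsal marginal zone. The LIM homeobox gene lhx5.S was 2.43-fold higher in the cap as a mean, but its probe sets differed, with 731 in the cap and 488 ventrally on one and 229 and 58.1 on the other. The Iroquois genes irx1.L (200.3 in the cap, 83.4 ventrally, 321 dorsally and 179.7 vegetally) and irx2.L (205, 89.6, 318 and 209) were 2.4-fold and 2.28-fold higher in the cap. The otx-related gene crx.S gave 159 in the cap and 67 ventrally (2.37-fold) with 1110 dorsally. The irx genes and crx.S were therefore lowest in the ventral marginal zone and not highest in the cap. The member higher ventrally was gmnn.L, which encodes geminin, an inhibitor of DNA replication licensing, with 1371 in the cap and 2881 ventrally (2.1-fold), and gmnn.S gave 4026 and 5223.

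Several of the largest cap differences lay outside these lists. The serine protease gene xepsin.L gave 378 in the cap, 56.5 ventrally, 74.2 dorsally and 18.5 vegetally, a 6.7-fold difference. The anterior gradient gene ag1.L, of a family of secreted proteins made by the cement gland, gave 625, 107, 79.5 and 49.2 (5.85-fold). Each was measured by 1 probe set. The gene elapor2.L was at least 4.58-fold higher, with 163 and 275 in the cap and 8.58 and 86.7 ventrally on its probe sets. The cornifelin gene cnfn.1.L, a cornified envelope component in mammals, gave 992 in the cap and 226 ventrally (4.39-fold). MGC68910 (1101 and 228, 4.83-fold), the CXCL12 scavenger receptor gene ackr3.L (438 and 111, 3.95-fold), vill.S (173 and 46, 3.75-fold) and tmem45b.L (547 and 146, 3.74-fold) followed. The gene dand5.S, whose protein is a secreted inhibitor of nodal and BMP ligands, gave 1418 in the cap, 413 ventrally, 375 dorsally and 219 vegetally (3.43-fold). Next came degs3.L, of a sphingolipid desaturase family (451 and 144, 3.13-fold), and the G protein subunit gene gnb3.L (472 and 159.6, 2.96-fold), whose copy gnb3.S reached 1.97-fold. Ventral and dorsal signals lay close to each other for xepsin.L, ackr3.L, dand5.S, degs3.L and gnb3.L. In the vegetal explant xepsin.L, MGC68910, elapor2.L, degs3.L and gnb3.L were at the floor. The copies xepsin.S, ag1.S, cnfn.1.S, vill.L and tmem45b.S stayed below the filter in the cap and ventrally. The brighter probe set of ag1.S gave 105 in the cap and 75 ventrally, and tmem45b.S gave 106 and 60.3.

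**Figure D2:**
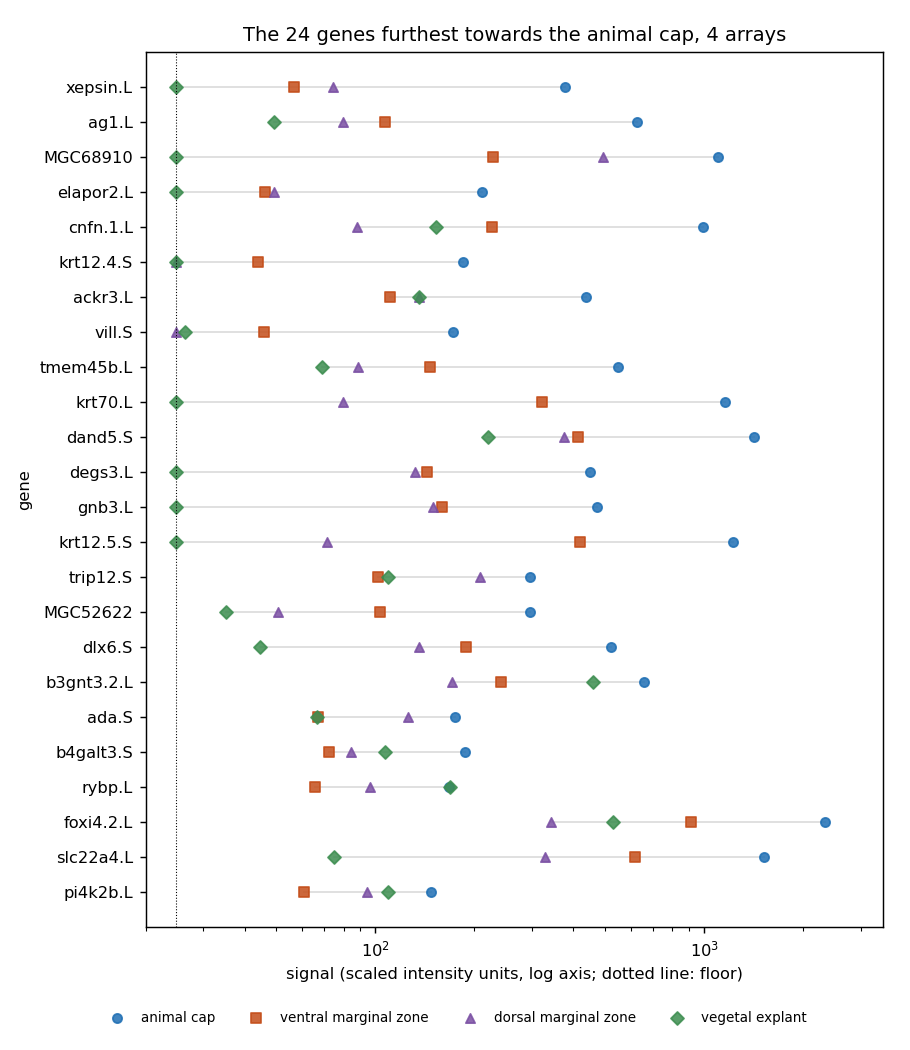
Signals of the 24 genes furthest towards the animal cap on the 4 arrays (log axis, scaled intensity units, values under the floor drawn at the floor). Circles stand for the animal cap, squares for the ventral marginal zone, triangles for the dorsal marginal zone and diamonds for the vegetal explant. For krt12.5.S the signals step down from 1220.2 in the cap to 418 ventrally and 71.4 dorsally, whereas MGC68910 gave a higher dorsal (492) than ventral (228) signal.

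Nearly all compared mesodermal genes were higher ventrally. Of 56 pan-mesoderm genes on the array 30 were compared, 29 were higher ventrally and 1 in the cap, and the median difference was -3.48. The filter bears on this count, because 26 of the 30 were compared through their ventral signal alone. Of the 4 that reached the filter in both explants, 3 were higher ventrally and 1 in the cap. The 29 ventral-high members had their highest signal ventrally in 11, vegetally in 11 and dorsally in 7. Among all named genes 246 of 4641 were compared through their ventral signal alone. Of the 4247 counted through both explants, 61 were past 2-fold in either direction. Over all named genes compared, 3.1% were ventral-high. A gene compared through its ventral signal alone has its lower mean in the cap by construction. How many of the 246 were ventral-high was not counted, so counts of this kind have no such background here or in the lists below. The member higher in the cap, meis3.S (686 and 325, 2.11-fold), encodes a homeodomain cofactor of hindbrain patterning. The protocadherin gene pcdh8.2.L, which drives convergence movements of paraxial mesoderm, gave 26.1 in the cap, 3619 ventrally, 5307 dorsally and 2243 vegetally, a 138-fold difference. The ligand gene wnt8a.L gave 23.1, 2416, 717 and 2842 in the same order, at least 97.8-fold. Here the dorsal signal lay well under the ventral and vegetal ones. The TGF-beta ligand gene gdf3.S was level over the 3 other explants, at 2064, 2085 and 1888, with 33 in the cap (62.5-fold). Brachyury (tbxt.S), a T-box gene needed for posterior mesoderm, gave 13.3 in the cap, 886 ventrally, 676 dorsally and 146 vegetally, at least 35.9-fold. The mesogenin gene msgn1.L, of presomitic mesoderm, gave 2.63, 980, 161 and 107, at least 39.7-fold, and was highest ventrally. The maternal and zygotic T-box gene vegt.L gave 349 in the cap and 6574 ventrally (18.8-fold), and vegt.S 2.69 and 268 (at least 10.9-fold). The T-box gene eomes.L gave 114, 1860.5, 3374 and 1043 (16.3-fold).

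Further members of the mesoderm list were also higher ventrally. Both copies of the apelin receptor gene, aplnr.L (87.6 in the cap and 635 ventrally) and aplnr.S (33 and 210), were higher ventrally, by 7.24-fold and 6.35-fold. The snail gene snai1.S, which represses epithelial genes, gave 46.1 and 445 (9.65-fold), and tbx6.L gave 1.35 and 165 (at least 6.69-fold). The Ras-like gene rasl11b.L, with 178 and 649 (3.64-fold), was the smallest ventral difference of the list. The genes aplnr.L, aplnr.S, snai1.S and tbx6.L were chosen after their values were seen. Of the genes outside the lists, menf.1.L gave 20.3 in the cap and 1707 ventrally (at least 69.1-fold). The Pinhead gene pnhd.L, which encodes a secreted protein, gave 33.3 and 47.1 in the cap and 1820 and 1154 ventrally on its probe sets (36.6-fold). The bZIP gene cebpa.L gave 28.7 and 829.9 (28.9-fold), with 246 dorsally and 371 vegetally. Its copy cebpa.S, at 28.5 in the cap and 6.35 ventrally, stayed below the filter. The acetyltransferase gene nat8.6.S gave 24.8 and 795 (32.1-fold) and cass4.L 90.6 and 1479 (16.3-fold).

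Ventral and BMP-responsive genes included some that were nearly level. Of 47 on the array 27 were compared, 15 were higher ventrally and 0 in the cap (median -1.15). Of the 13 compared through their ventral signal alone 12 were ventral-high, against 3 of the 14 that reached the filter in both explants. The homeobox gene evx1.L gave 2.68 in the cap, 434 ventrally, 36.8 dorsally and 109 vegetally, at least 17.6-fold. The ventx genes encode homeodomain repressors of organizer genes. In that family ventx3.2.S gave 42, 580, 34 and 1959, a 13.8-fold ventral difference, so that its cap and dorsal signals were alike low. The gene ventx2.1.L was 682 in the cap and 2165 ventrally (3.18-fold), while ventx2.1.S was 1512 and 2375 (1.57-fold), and both therefore had substantial cap signal. Sizzled, a secreted inhibitor of chordin cleavage, differed alike in its copies, with szl.S at 87.7 in the cap and 433 ventrally (4.94-fold) and szl.L at 38.6 and 186 (4.82-fold). Their dorsal signals of 34.1 and 19.1 were lower than those of the cap. The ligand gene bmp7.1.L gave 33 and 205 (6.23-fold) while bmp7.2.L, of the same ligand family, was near equal at 4890 and 4653. The tolloid-like protease gene tll1.S gave 84.2 and 426 (5.07-fold). The inhibitor-of-differentiation gene id3.S, a direct BMP target, was near equal at 1217 and 1297.

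Endodermal genes were also ventral-high, and most of them were higher still in the vegetal explant. Of 42 on the array 26 were compared, 23 were higher ventrally and 0 in the cap (median -3.44). All 20 compared through their ventral signal alone were ventral-high, against 3 of the 6 that reached the filter in both explants. The zinc finger gene gata6.L gave 28.6 in the cap, 2121 ventrally, 2204 dorsally and 7027 vegetally (74.2-fold). The HMG-box gene sox17b.1.S gave 10.4, 1149, 1244 and 7246 on one probe set and 26.6, 867, 990.5 and 6748 on the other, together at least 38.9-fold. Its relatives sox17a.L (28.3 and 237, 8.37-fold) and sox17a.S (2.69 and 158, at least 6.4-fold) had far lower ventral signals than the vegetal 1831 and 1862. The odd-skipped gene osr1.L gave 27.3, 681, 719 and 2527 (24.9-fold). The Mix-type homeobox genes mix1.L (25.2 in the cap, 429 ventrally and 886 vegetally, 17-fold) and mix1.S (3.6, 634 and 1329, at least 25.7-fold) were also highest vegetally. Of the 23 ventral-high members, the highest signal was vegetal for 18, dorsal for 3 and ventral for 2. The chemokine receptor gene cxcr4.L was near equal in cap and ventral explant (2881 and 3177), while its copy cxcr4.S gave 717 and 1439 (2.01-fold).

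Most organizer genes stayed below the filter in both the cap and the ventral explant. Of 28 on the array 10 were compared, 6 were higher ventrally and 1 in the cap, with a median of -2.48. All 6 ventral-high members were compared through their ventral signal alone, and of the 3 that reached the filter in both explants 0 were ventral-high. The Wnt antagonist genes frzb.S and frzb.L gave 17.4 and 7.22 in the cap and 3625 and 206 ventrally, bounds of at least 147-fold and at least 8.33-fold. For cer1.S, which encodes a secreted antagonist, the signals were 24.7, just above the floor, and 447 (18.06-fold). Those of foxa4.S were 2.96 and 269 (at least 10.9-fold), and those of goosecoid (gsc.S) 51.3 and 192 (3.74-fold). The dorsal signals of these 5 genes were 4852, 1629, 2236, 715 and 2662, each above the ventral one. The vegetal signals were higher still for frzb.S (9248), frzb.L (2177) and cer1.S (2740). The Wnt-binding gene sfrp2.S was the member higher in the cap, with 6211 in the cap, 3077 ventrally, 5864 dorsally and 2113 vegetally (2.02-fold), and was chosen after its values were seen. With quantile scaling and with arrays scaled to the hybridisation controls 0 organizer genes were higher in the cap. The not.L gene was near equal at 379.7 and 435, and both chrd.1.S probe sets were at the floor in cap and ventral explant.

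Germ plasm and vegetally localised maternal RNAs varied in their ventral signal. Of 28 on the array 21 were compared, 8 were higher ventrally and 0 in the cap (median -0.47). Of the 8, 7 were compared through their ventral signal alone. The germ plasm gene pgat.L gave 30.6 in the cap, 191 ventrally, 197 dorsally and 8243 vegetally (6.24-fold), and the germline RNA-binding gene dazl.L 36.3, 178, 162 and 4242 (4.9-fold). For gdf1.S, a gene of the TGF-beta ligand family, the signals were 41.8, 253, 234 and 3237 (6.06-fold). The ventral and dorsal signals of these 3 genes were close to each other and far under the vegetal ones. The Wnt ligand gene wnt11b.L had much more ventral signal, with 95.1 in the cap, 813 ventrally, 1132 dorsally and 1756 vegetally (8.56-fold). The germ cell helicase gene ddx4.L was near equal on all arrays, between 679 and 755.

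In the signalling lists a minority of the compared genes was past 2-fold. Ventral-high were 33.3% of the nodal, 11.1% of the FGF and 34.5% of the Wnt genes. They were 25% of the Notch and 30% of the retinoic acid genes, against 3.1% of all named genes. Except in the FGF list, most ventral-high genes were compared through their ventral signal alone. The counts were 7 of 8 in the nodal list, 1 of 2 in the FGF list, 9 of 10 in the Wnt list, 2 of 2 in the Notch list and 2 of 3 in the retinoic acid list. In the last of these aldh1a2.L was counted by its mean, while its brighter probe set reached the filter in the cap too, at 159. In the nodal pathway list 8 of 24 compared genes were higher ventrally and 1, dand5.S, in the cap (39 on the array, median -0.40). The ligand gene nodal2.L gave 10.3 in the cap and 282 ventrally (at least 11.4-fold), and the inhibitor gene lefty.L 24.9 and 168 (6.72-fold). The transducer gene smad4.L was 1731 and 1678. In the FGF list 2 of 18 were higher ventrally and none in the cap (29 on the array, median -0.21), and both encode ligands. The gene fgf8.L gave 277 in the cap, 2726 ventrally, 4130.2 dorsally and 939.6 vegetally (9.84-fold), and fgf20.L 13, 187, 412 and 43.6 (at least 7.56-fold). The adaptor gene cnksr1.L (1268 and 1274) and the ETS gene etv1.S (151 and 143) were near equal. In the Wnt list 10 of 29 were higher ventrally and 2, meis3.S and sfrp2.S, in the cap (63 on the array, median -0.32). With arrays scaled to the hybridisation controls 0 were higher in the cap. Besides the genes above, the ventral-high ones included the caudal homeobox gene cdx1.S (23.6 and 453, at least 18.3-fold). Its other probe set, at 37.9 in the cap and 77.5 ventrally, stayed below the filter. The intracellular modulator gene dact1.L was 2254 and 2238 and the transcription factor gene tcf7.S 1034 and 1132.

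In the Notch list 2 of 8 genes were higher ventrally and none in the cap (21 on the array, median 0.10). The ligand gene dll1.L gave 124 in the cap, 723 ventrally, 397 dorsally and 223 vegetally (5.84-fold). The hairy-related gene hes7.2.L gave 94.8 and 106 in the cap and 759 and 814 ventrally (7.84-fold), with its probe sets in close accord. For retinoic acid, 3 of 10 genes were ventral-high and 1, meis3.S, cap-high (21 on the array, median -0.27). The synthesis gene aldh1a2.L gave 21.2 and 159 in the cap and 267 and 557 ventrally on its probe sets (at least 6.15-fold). The degradation gene cyp26a1 was higher ventrally in both copies, by 4.37-fold for cyp26a1.L (63 and 275) and 2.18-fold for cyp26a1.S (196 and 427). Genes for making and for removing retinoic acid were thus both ventral-high, and both cyp26a1 copies gave their highest signal in the dorsal marginal zone.

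Adhesion, transport and housekeeping lists had medians near 0. Ventral-high were 5.26% of the adhesion and 10% of the transport genes, against 3.1% of all named genes. The shares past 2-fold in the cell cycle (1.37%), respiratory chain (1.67%) and ribosomal protein (1.33%) lists were near or under the background. Of 38 compared adhesion genes (59 on the array, median 0.10) 2 were higher ventrally, pcdh8.2.L and the ephrin receptor gene epha4.L (94.5 and 304 in the cap and 299 and 857 ventrally, 2.99-fold). The fibronectin gene fn1.S gave 8416 and 8642 on its brightest probe set and pkp3.S gave 382 and 369. Of 20 solute carrier and ion pump genes (30 on the array, median 0.015) 2 were higher ventrally. The amino acid transporter gene slc38a2.L gave 610.3 in the cap and 3914 ventrally (6.41-fold). For the glucose transporter gene slc2a1.L the mean was 2.28-fold higher ventrally, but its probe sets opposed each other, with 67.2 and 539.6 on one and 433 and 281 on the brighter one. The list does not hold every solute carrier gene on the array. Outside it slc5a8.1.L (at least 14.96-fold) and slc7a9.L (2.005-fold) were ventral-high, and slc22a4.L was cap-high (1521 and 618, 2.46-fold). These were chosen after their values were seen. In the cell cycle list 1 of 73 genes, gmnn.L, was past 2-fold (83 on the array, median 0.056), and cdk1.S was 1546 and 1538. In the respiratory chain list 1 of 60, ndufb8.L at 71 and 147 (2.08-fold), was higher ventrally (63 on the array, median -0.058). In the ribosomal protein list 1 of 75 was past 2-fold (79 on the array, median -0.12), and this was rps6ka6.S (234 in the cap and 106 ventrally, 2.2-fold), a kinase gene that the name pattern took in. The gmnn.L difference fell short of 2-fold with median centring (-0.98), that of ndufb8.L with median centring (-0.97) and quantile scaling (-0.94), and that of rps6ka6.S with scaling to the hybridisation controls (0.97). With arrays scaled to the hybridisation controls the medians of the Notch, adhesion, transport and cell cycle lists turned to the ventral side, at -0.068, -0.071, -0.15 and -0.11. With each array centred on its median that of the respiratory chain turned to 0.031. These scalings moved the median of all probe sets to -0.16 and 0.10, so the signs of these list medians depended on the scaling.

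**Figure D3:**
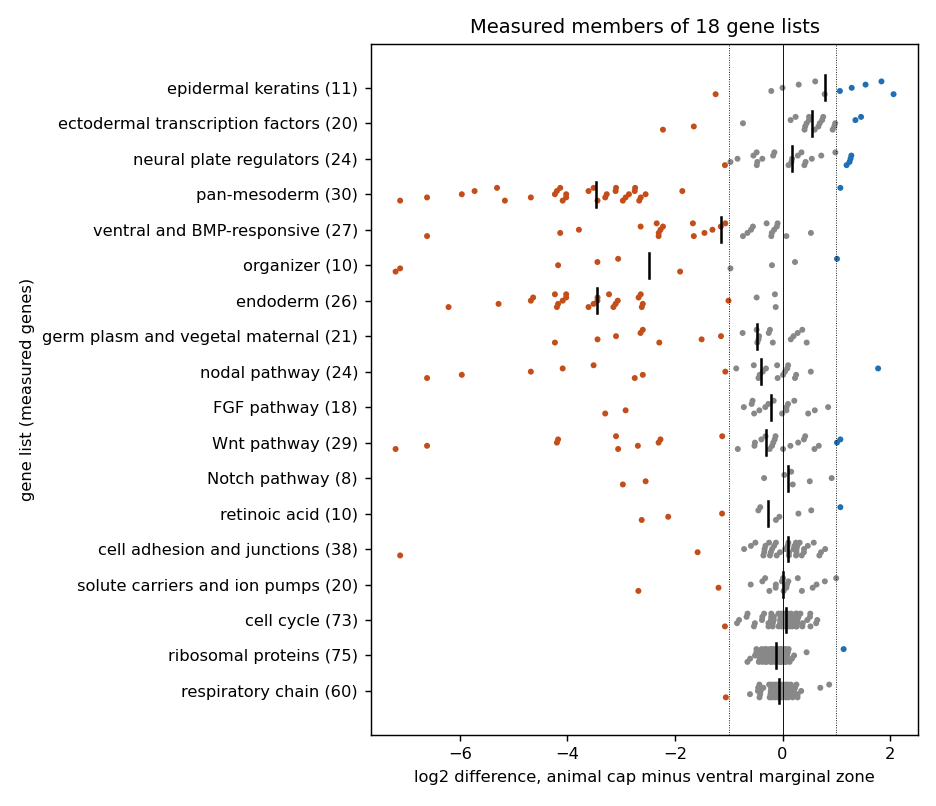
Log2 difference (animal cap minus ventral marginal zone) of each measured member of 18 gene lists, with the number measured in parentheses. Points are genes, black bars are list medians and dotted lines mark 2-fold. The pan-mesoderm (median -3.48) and endoderm (-3.44) lists lie on the ventral side, the keratins (0.78) towards the cap, and the cell cycle, ribosomal protein and respiratory chain lists around 0.

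**Figure D4:**
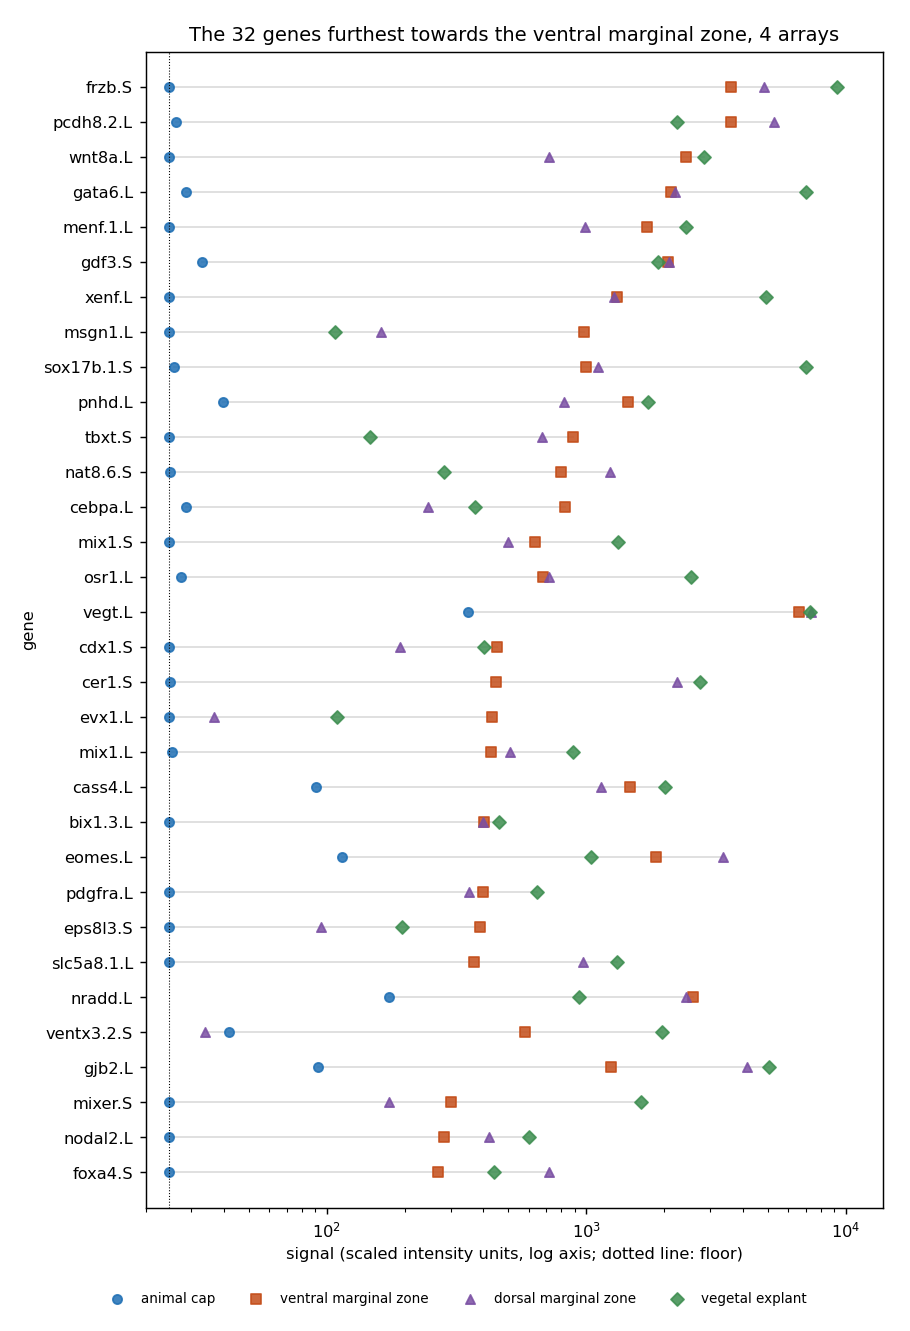
Signals of the 32 genes furthest towards the ventral marginal zone on the 4 arrays (log axis, scaled intensity units, values under the floor drawn at the floor). Circles stand for the animal cap, squares for the ventral marginal zone, triangles for the dorsal marginal zone and diamonds for the vegetal explant. The cap is at or near the floor for most genes, and the other explants differ in order: evx1.L and msgn1.L were highest ventrally, tbxt.S was low vegetally at 146, and gata6.L and sox17b.1.S were highest vegetally.

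The dorsal marginal zone and vegetal arrays, which entered the choice of these probe sets only through the floor and the filter, gave a comparison that shares no array with the one above. Over 8595 probe sets, 7.89% passed 2-fold towards the dorsal marginal zone there and 9.83% towards the vegetal explant. Among the 7826 of them that were also compared between cap and ventral explant, 8.203% were dorsal-high, 6.57% vegetal-high and 85.2% within 2-fold. Of the 116 cap-high probe sets 74 could be compared there, where 41 (55.4%) were dorsal-high and 2 (2.70%) vegetal-high, with a median difference of 1.14 on the log2 scale. Of the 262 ventral-high probe sets 246 could be compared, and 43 (17.5%) were higher dorsally, 93 (37.8%) vegetally and 110 (44.7%) within 2-fold, with a median of -0.49. Ventral-high probe sets were thus spread over both sides, whereas cap-high ones, where they could be compared, were seldom higher vegetally. On the dorsal side stood fgf20.L (3.24 on the log2 scale), fgf8.L (2.14), tbxt.S (2.21) and eomes.L (1.69). On the vegetal side stood pgat.L (-5.38), dazl.L (-4.71), gdf1.S (-3.79) and sox17b.1.S (-2.66), but also the ventral genes ventx3.2.S (-5.85) and szl.S (-2.53), whose dorsal signals were low. Near equal in both were gdf3.S (0.14), vegt.L (0.021) and bix1.3.L (-0.22). The last of these encodes a Mix-family homeodomain protein and was chosen after its values were seen.

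**Figure D5:**
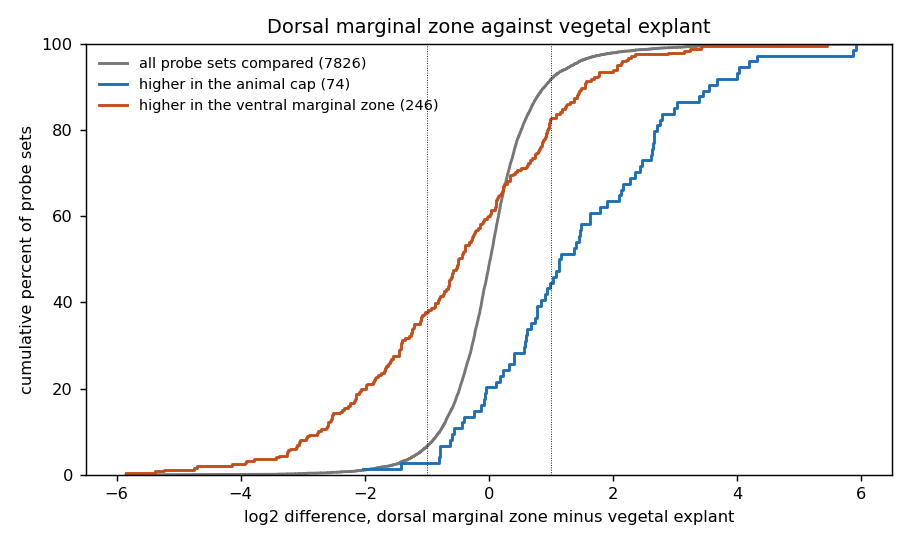
Cumulative percent of probe sets by log2 difference between the dorsal marginal zone and the vegetal explant, for all compared probe sets, the cap-high ones and the ventral-high ones. Dotted lines mark 2-fold. The cap-high curve is shifted to the dorsal marginal zone side (median 1.14) and the ventral-high curve is wider than that of all probe sets, with 37.8% beyond 2-fold on the vegetal side.

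By level, the dorsal marginal zone gave a signal at or above the ventral one for 107 of the 262 ventral-high probe sets, between cap and ventral signal for 140, and at or below the cap signal for 15. The vegetal explant was at or above the ventral signal for 139, between for 104 and at or below the cap signal for 19. The cap was lowest, or tied for lowest, of all arrays for 232 of the 262. The highest signal was ventral for 83, dorsal for 58 and vegetal for 121. Over all 8082 probe sets compared, the cap was lowest, or tied for lowest, for 1877. Their highest signal was in the cap for 2304, ventral for 1559, dorsal for 1388 and vegetal for 2831. The rule puts the cap under the ventral signal for the 262, so the cap cannot be their highest array. Among the other arrays the vegetal one was most often the highest in both sets. For the 116 cap-high probe sets the dorsal signal was at or above the cap for 7, between for 57 and at or below the ventral signal for 52, and the vegetal signal was at or below the ventral one for 81. Median signals of the cap-high probe sets were 443 in the cap, 157 ventrally, 171 dorsally and 89.4 vegetally. Those of the ventral-high probe sets were 85.8, 399.6, 360.1 and 553.

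Agreement inside the arrays gave the only measure of error. Probe sets and copies of a gene were read on the same cap and ventral arrays. Their agreement therefore does not measure variation between explants or between arrays, and they are not replicates. Among 624 genes with several compared probe sets, the log2 differences of the first pair of probe sets of a gene differed with an SD of 0.47 and by a median absolute amount of 0.24. There were 85 pairs in which a probe set was past 2-fold. Both signs matched in 63 of them, 18 had both probe sets past 2-fold in 1 direction, and 0 had them past 2-fold in opposite directions. Genes with many compared probe sets enter with many of these pairs, among them polr2i.S, whose probe sets did not move together. Of 48 genes with several compared probe sets and at least 1 past 2-fold, all their probe sets were past it in 12, among them xenf.L, sox17b.1.S, pnhd.L, hes7.2.L and aldh1a2.L. Homeologous copies gave a second view, with 548 pairs in which both copies were compared. In 12 pairs both were higher ventrally, namely aplnr, bix1.3, bmp2, cyp26a1, frzb, gata5, lmo4.2, mix1, myc, sox17a, szl and vegt. In 1 pair, krt12.4, both were higher in the cap. In 17 pairs 1 copy was past 2-fold, the other having the same sign in 14, and no pair was past 2-fold in opposite directions. The pairs bix1.3, bmp2, gata5, lmo4.2 and myc were named after their values were seen.

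The spread depended on brightness and the rule of size was a sharp line. The robust SD of the log2 difference was 0.47 in the 2694 dimmest probe sets, 0.30 in the middle 2694 and 0.22 in the brightest 2694. Of the called probe sets, 67 cap-high and 202 ventral-high ones lay among the dimmest, against 15 and 19 among the brightest. Brightness here was the mean of the floored log2 signals of the cap and the ventral explant. A low signal in the cap therefore by itself lowered the rank of a ventral-high probe set, however bright it was ventrally. Just inside 2-fold lay hmga2.L (2.005-fold), c19orf44.L (2.004-fold) and a probe set of nfe2.S (2.002-fold) on the cap side, and just outside lay probe sets of slc22a5.L, dhps.S and atp1b2.L, a sodium pump subunit gene (1.997-fold, with 2648 in the cap and 1326 ventrally). On the ventral side MGC69520.S, cxcr4.S and slc7a9.L were just inside and nfkbia.S, ywhah.L and dhdds.L just outside. On the cap array the mean log2 signal of the hybridisation controls was 0.17 above that on the ventral array, and with arrays scaled to them 61 probe sets were higher in the cap and 356 ventrally, a cap share of 14.6% of the calls against 30.7% as deposited. Median centring of the arrays gave 167 and 233 probe sets, with 41.8% on the cap side. The excess of ventral calls was therefore present under each of these scalings, and its size varied with the scaling.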

How the data were processed

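Total RNA from explants of Xenopus laevis embryos at stage 10 was treated with DNase I and column-purified, and 100 ng was amplified and biotin-labelled with the Ovation system, per the labels' protocols. The authors deposited intensity signals on a linear scale, 15611 probe sets for each of 4 arrays, scaled to a common trimmed mean (2% off each end) of 499.8, as read from the values. Summarisation software is not given in the sources used here. Samples were assigned by title, with 1 array per explant.

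The 120 control probe sets were left out, signals were floored at the 20th percentile, log2-transformed and filtered as described above (Python 3.11.15, pandas 2.3.3). The percentiles were taken over all values, controls included. Names came from the platform annotation, where 9304 had 1 symbol, 195 several and 5992 none listed. Gene identifiers of 9227 of the former were found in the RefSeq table of Xenopus_laevis_v10.1, and 2 symbols were updated. Sequences and coordinates were not used here. The script was tested on simulated data.

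Named genes were the 12 with the largest difference each way above the floor, up to 10 bounds a side, up to 6 members of each of 18 gene lists past 2-fold and the 2 nearest to 0, their homeologs, the 3 probe sets on each side of the threshold, and checks of the labels. The comparison, the lists and the rule were chosen with earlier results of these data known. The lists overlap. The alternatives were 3 scalings, 2 floors, 2 filters, the brightest probe set and counting by gene.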

Additional observations from a re-analysis of the deposited data

How the results depend on the processing

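Without the filter on low signals, 249 probe sets were cap-high and 528 ventral-high. With the filter at the 70th percentile the numbers were 59 and 120, and members of the gene lists past 2-fold fell to 46 genes from 87, because fewer genes were compared. Scaled to the hybridisation controls, 61 probe sets were higher in the cap. With median centring 74 named genes were cap-high in place of 49, and single gene lists moved as given above. The other counts of probe sets past 2-fold under each scaling stayed within 1.5 times of those reported. Floors at the 10th and 30th percentiles left the counts at 116 and 262, which is no check of the calls. A compared probe set reaches the filter in its higher signal. With a floor more than 2-fold under the filter, a lower signal at the floor is past 2-fold in any case. Such a floor can neither add nor remove a call. Of the 116 cap-high and 262 ventral-high probe sets, 33 and 110 were called under each scaling and filter. The floors removed no call, for the reason just given. By its brightest probe set slc2a1.L turned to 0.62 (log2) towards the cap, the only named gene past 2-fold to change direction under the alternatives. No paired analysis was possible because each explant has 1 array. Signals at the floor give only bounds, and the number of arrays limits the precision.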

Other observations

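The gene polr2i.S, a subunit of RNA polymerase II, carries 9 compared probe sets in the platform annotation, and they did not move together. Of these, 1 gave 40.9 in the cap, 849 ventrally, 108 dorsally and 1126 vegetally, and another 43.6, 795, 70.5 and 604. The other 7 were within 2-fold between cap and ventral explant, with signals up to 2505 ventrally. The glycogen phosphorylase gene pygm.S was 373 and 4216 on one probe set and 309 and 303 on the other. The riboflavin kinase copies differed, with rfk.S at the floor in the cap and 148 ventrally and rfk.L at 199 and 164. These genes were chosen after their values were seen.

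Other ventral-high genes outside the lists were also chosen after their values were seen. The connexin gene gjb2.L gave 92.7 in the cap, 1243 ventrally, 4145 dorsally and 5035 vegetally (13.4-fold). The gene nradd.L, which encodes a relative of the neurotrophin receptor p75, gave 174, 2587, 2428 and 939 (14.9-fold), and cmtm8.L 416, 4449, 5574 and 6516 (10.7-fold). The receptor gene pdgfra.L was at or under the floor in the cap and gave 522 and 304 ventrally on its probe sets (at least 16.1-fold). The purine phosphorylase gene pnp.L gave 91.3 in the cap, 315 ventrally, 1865 dorsally and 42.6 vegetally (3.45-fold).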
